A study of Mus musculus with 24 samples.

Results

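The axon guidance ligands and receptors described here were 67 of the 52636 genes counted in the nucleus accumbens (NAc), the ventral striatal region best known for its role in reward. They were chosen by symbol and level. Protein-coding genes were taken whose symbols name semaphorins of classes 3 to 7, plexins, neuropilins, ephrins, Eph receptors, Slits, Robos, netrins, Unc5 receptors or Dcc, and whose mean sense-strand count over the 24 libraries was at least 10. Of 68 matching genes, 67 passed, and the netrin gene Ntn5 did not. The rule of symbol and level used no comparison between groups, though earlier results of these data were known when the members were chosen. By role, 33 were ligands and 34 were receptors.

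RNA was measured by RNA-seq in 24 C57BL/6 mice (C57BL/6J in the methods of the study) aged 50 days, each giving 1 library from punches of both NAc. Each of the 4 groups, Con and MSUS in either sex, held 6 animals. MSUS litters went through maternal separation with unpredictable maternal stress soon after birth, Con litters were left undisturbed, and all animals were killed before the behavioral tests of the study began. The labels do not tie animals to litters, so p values measure the spread between animals, of which some may be littermates.

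Guidance cues steer growing axons by attracting or repelling the growth cone. Semaphorins act through plexins, with neuropilins as co-receptors for the secreted class 3 members. Ephrins are bound to the membrane and signal to Eph receptors on the neighboring cell, and also back into the cell that carries them. Slits repel axons through Robo receptors, and netrins attract through Dcc or repel through Unc5 receptors. In the mature brain many of these molecules stay in use at synapses, in dendritic spines and in blood vessels.

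Per library, sense-strand counts added up to 39923666 to 70575745. Summed markers of striatal projection neurons lay between 598 and 1759 RPKM (counts per kb of exon, scaled to the library total) over the 24 libraries, and no marker of any of the 8 cell type lists was at 0 in every library. Summed markers of cortical excitatory neurons varied more, from 13.3 to 292 RPKM. A cortical marker score, their mean log2 CPM, had a median of 4.74 in Con females (3.46 to 6.17), 2.74 in MSUS females (0.921 to 5.18), 3.82 in Con males (2.34 to 5.81) and 4.06 in MSUS males (2.18 to 6.26). The unassigned share, the percentage of uniquely mapped pairs that fell in no counted gene and which holds intronic and intergenic reads, was 31.02% to 34.8% in Con females and 36.3% to 43.9% in MSUS females, with no overlap. In males it was 34.7% to 40.6% in Con and 32.2% to 44.7% in MSUS animals. In this bulk tissue fewer cells of a type and less RNA per cell cannot be told apart.

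Promoters are shown for members picked from the comparison of females. Sema6b and Ephb4 were the 2 members whose Con and MSUS females did not overlap (2.99%, against 7.21% of all genes tested). Plxnc1 was the 1 member called as higher in MSUS females (1.49%, against 13.1% of all genes tested). Each line gives the 250 bases before the RefSeq transcription start site in the direction of transcription, on GRCm38.p6. The Sema6b window lies at chr17:56140344-56140593 on the minus strand, the Ephb4 window at chr5:137349859-137350108 on the plus strand and the Plxnc1 window at chr10:94944846-94945095 on the minus strand. Capitals mark GC boxes, the letters GGGCGG or their reverse complement CCGCCC.
Sema6b: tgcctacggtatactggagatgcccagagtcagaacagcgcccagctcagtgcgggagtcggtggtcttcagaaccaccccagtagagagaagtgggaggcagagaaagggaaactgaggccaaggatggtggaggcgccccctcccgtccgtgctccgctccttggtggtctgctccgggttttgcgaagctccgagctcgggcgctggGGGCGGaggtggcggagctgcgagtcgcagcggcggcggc
Ephb4: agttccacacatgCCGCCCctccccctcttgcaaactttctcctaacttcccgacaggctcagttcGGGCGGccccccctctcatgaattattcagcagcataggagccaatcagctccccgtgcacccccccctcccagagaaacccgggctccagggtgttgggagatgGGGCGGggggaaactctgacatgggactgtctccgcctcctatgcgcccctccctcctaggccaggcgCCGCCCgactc
Plxnc1: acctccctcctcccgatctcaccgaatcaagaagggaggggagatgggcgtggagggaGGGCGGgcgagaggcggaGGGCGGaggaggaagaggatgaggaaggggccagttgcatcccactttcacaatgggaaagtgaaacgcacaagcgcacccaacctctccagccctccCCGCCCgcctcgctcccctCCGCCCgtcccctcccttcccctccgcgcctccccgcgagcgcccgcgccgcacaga

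The Sema6b stretch held 1 GC box and those of Ephb4 and Plxnc1 held 4 each. Over the 12 members called as lower the number ran from 0, in Robo2, Robo4 and Sema4d, to 5 in Unc5a. RefSeq windows were matched for 57 of the 67 members. Of these, 42 (73.7%) held at least 1 GC box on either strand, against 57.9% of 11602 protein-coding genes tested in females and 32.7% of all 32851 promoter windows of this length. Of the 13 members called in females in the comparison that follows, 10 (76.9%) held one. Median GC content of the stretch was 64.8% over the 57 members and 59.6% over the protein-coding genes. A match of letters describes the window and shows no bound factor.

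In Con animals, 60 of the 67 members were at 1 RPKM or more and 22 were at 10 or more, with a median of 6.09. Efnb3, a transmembrane ephrin, was the most abundant at 47.6 ± 5.99 RPKM (SD, n = 12 Con animals). It was above the next member in each of the 12 animals. That next member was Sema6b, a transmembrane semaphorin, at 29.6 ± 1.80 RPKM, and the ephrin receptor Epha4 was at 28.3 ± 3.29. Sema6b and Epha4 did not differ beyond their spread, since Sema6b was the higher in 7 of 12 animals. Epha4 was above Efnb2, the next in order, in 12 of 12.

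The ligand Efnb2 (21.9 ± 2.28 RPKM) and the membrane-anchored semaphorin Sema7a (21.7 ± 6.30) were followed by the plexins Plxna2 (18.2 ± 1.04) and Plxnd1 (17.1 ± 3.34), the Slit family member Slit3 (16.4 ± 1.82), the receptor Epha6 (16.4 ± 2.25) and the netrin receptor Unc5a (16.1 ± 2.76). No neighbors in this stretch of the order kept their places in more than 9 of 12 animals. The most abundant member of each remaining group was Ephb6 (13.9 RPKM), Efna3 (12.03), Robo1 (10.3), Ntn1 (9.74), Sema4d (8.07), Nrp2 (6.42), Dcc (6.28) and Sema3e (5.44). The lowest were the receptor Epha1 (0.0667 ± 0.0346 RPKM), the ligands Efna4 (0.137 ± 0.0632) and Sema3b (0.216 ± 0.0484), and the receptors Epha2 (0.388 ± 0.0498) and Robo3 (0.541 ± 0.313). The EphA receptors thus ran from Epha4, among the highest members, down to Epha1, whereas the 9 plexins lay between 4.06 and 18.2 RPKM.

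**Figure D1:**
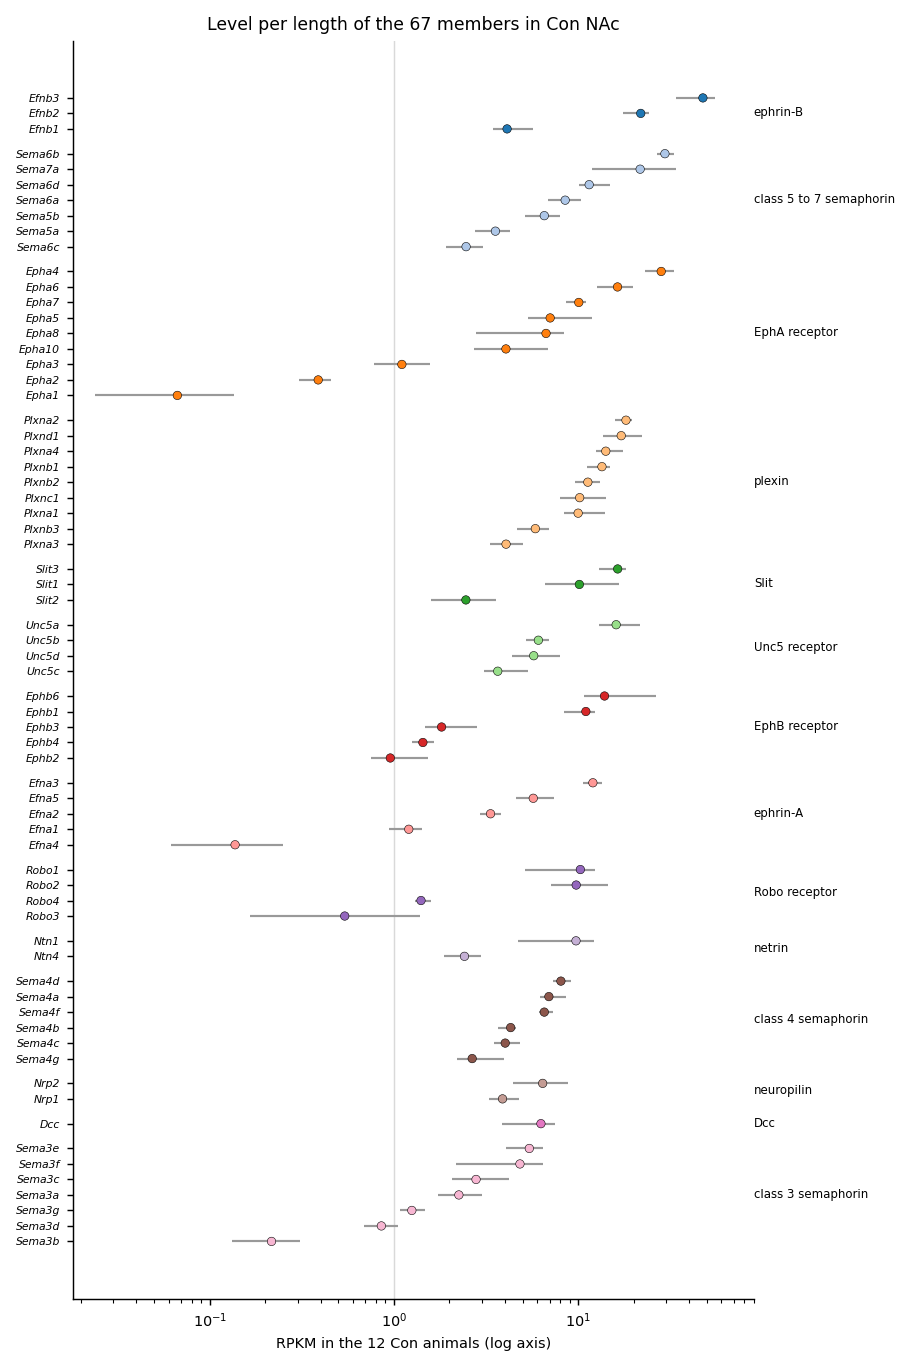
Level per length of the 67 members in Con animals, in RPKM on a log axis, grouped by family. Points are means and bars run from the lowest to the highest of the 12 Con animals. Efnb3 at 47.6 RPKM lies farthest right, and 7 members lie under 1 RPKM.

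To see how early-life stress changed these genes in females, MSUS were compared with Con females by edgeR's quasi-likelihood F test over 20571 genes, and a gene with a Benjamini-Hochberg adjusted p under 0.10 was called. Of the 67 members 13 were called (19.4%), against 25.1% of all genes tested. Of these, 12 were lower in MSUS females (17.9%, against 11.9% of all genes) and 1 was higher (1.49%, against 13.1%). The members' median log2 fold change was −0.10 and that of all genes −0.0027, and 46 of the 67 (68.7%) lay below 0 against 50.6% of all genes. Changes were small. The median size among the called members was 0.27 on the log2 scale, as it was over all genes called. With the unassigned share as a covariate 0 members were called, as described further on. At an unadjusted p under 0.05 there were 21 members (31.3%), against 32.7% of all genes.

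Among the ligands 6 of 33 were called, all lower in MSUS females. Sema6b (chromosome 17, 56123085 to 56140343) had 6454 to 7021 normalized counts in Con females (median 6552) and 5424 to 6266 in MSUS females (median 5573). The groups did not overlap, and the log2 fold change was −0.22 (standard error 0.0401, adjusted p = 0.00637). Sema4d (chromosome 13, 51685529 to 51793747), a transmembrane semaphorin that binds plexin-B receptors, ran from 3072 to 3901 in Con females (median 3475) and from 2735 to 3114 in MSUS females (median 2933). Its Con median exceeded the value of each MSUS female, and the fold change was −0.23 (standard error 0.0528, adjusted p = 0.0149).

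Efna2 (chromosome 10, 80179482 to 80190010), an ephrin tethered by a lipid anchor, was at 374 to 434 normalized counts in Con females (median 399) and 331 to 377 in MSUS females (median 343). Its groups overlapped only at their edges, and the fold change was −0.22 (standard error 0.0558, adjusted p = 0.0220). Sema7a (chromosome 9, 57940112 to 57962865) varied far more among animals, from 3184 to 6216 in Con females (median 3871) and from 2226 to 3982 in MSUS females (median 2669). On the log2 scale its change of −0.60 (standard error 0.176, adjusted p = 0.0402) was the largest among the ligands called.

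The remaining ligands called were close to the threshold. Ntn4 (chromosome 10, 93640681 to 93747207), a netrin found in basement membranes, had 375 to 562 normalized counts in Con females (median 501) and 339 to 472 in MSUS females (median 395), which came to −0.28 on the log2 scale (standard error 0.102, adjusted p = 0.0760). Sema6c (chromosome 3, 95160457 to 95174024), a relative of Sema6b, had 688 to 966 (median 754) and 647 to 708 (median 687), a change of −0.22 (standard error 0.0827, adjusted p = 0.0878). The ranges overlapped in both genes, although no MSUS female reached the Con median.

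Of the 34 receptors 7 were called, 6 of them lower. Ephb4 (chromosome 5, 137350109 to 137378669), a receptor for Efnb2 known from blood vessels, ran from 359 to 412 normalized counts in Con females (median 369.8) and from 309 to 338 in MSUS females (median 321). Its groups did not overlap, and the fold change on the log2 scale was −0.21 (standard error 0.0538, adjusted p = 0.0199). Such separation was seen for 2 of the 67 members (2.99%) and for 7.21% of all genes, in the lower direction for 3.41%.

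Both called Unc5 receptors were lower in MSUS females. Unc5b (chromosome 10, 60762593 to 60831581) had 1736 to 2247 normalized counts in Con females (median 2061) and 1493 to 1859 in MSUS females (median 1712), which came to −0.27 on the log2 scale (standard error 0.0665, adjusted p = 0.0201). Unc5a (chromosome 13, 54949411 to 55006018), the most abundant of the 4 Unc5 genes, had 3114 to 4998 (median 3714) and 2744 to 3598 (median 3062), a change of −0.34 (standard error 0.109, adjusted p = 0.0522). In each gene the 6 MSUS females were under the median of the Con females. Unc5c and Unc5d were not called.

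In the Robo family 3 of 4 genes were called. Robo3 (chromosome 9, 37415669 to 37433246), known for its role in axons that cross the midline, was the least abundant of the 4, with 134 to 505 normalized counts in Con females (median 207) and 106 to 172 in MSUS females (median 119). On the log2 scale its change of −0.98 (standard error 0.296, adjusted p = 0.0432) was the lowest of all members, and without Con female 2 it was −0.65. Robo4 (chromosome 9, 37401897 to 37415115), the Robo of endothelial cells, had 369 to 454 (median 405) and 346 to 389 (median 362), a change of −0.16 (standard error 0.0610, adjusted p = 0.0914). Robo2 (chromosome 16, 73891839 to 74411825), a neuronal Slit receptor, had 8029.6 to 13593 (median 9548) and 6330.4 to 9053 (median 8001), a change of −0.31 (standard error 0.122, adjusted p = 0.0994). In these 3 genes the ranges overlapped, with each MSUS female under the Con median, and Robo1 was not called. Without Con female 3, the highest Con female for Robo2, its change was −0.20 and not called.

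Plxnc1 (chromosome 10, 94790866 to 94944835), the plexin that serves as a receptor for Sema7a, was the 1 member called as higher in MSUS females, while others such as Robo1 (0.30) and Dcc (0.22) had fold changes above 0 and were not called. It had 3664 to 4896 normalized counts in Con females (median 4326) and 4274 to 6046 in MSUS females (median 5425), with 5 of 6 MSUS females above the Con median. Its log2 fold change was 0.32 (standard error 0.0881, adjusted p = 0.0293), so this receptor and its ligand Sema7a passed the test in opposite directions.

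**Figure D2:**
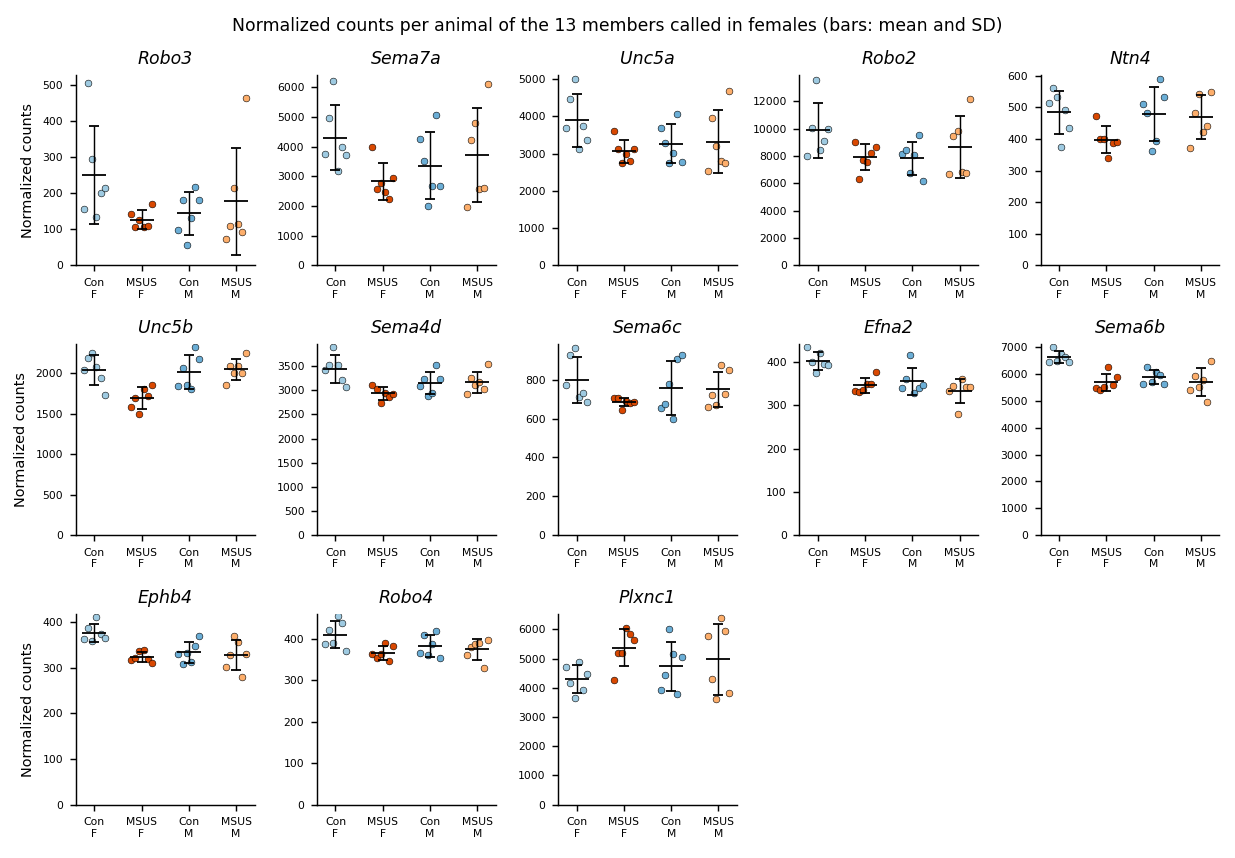
Normalized counts of the 13 members called in females, 1 point per animal, with the mean and SD of each group of 6 animals, where F stands for females and M for males. In Sema6b and Ephb4 every Con female lies above every MSUS female, while in Plxnc1 the MSUS females lie mostly higher.

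Calls fell on some families and not on others, and the spread over families was not tested. Class 5 to 7 semaphorins had 3 of 7 called, and all 7 had fold changes below 0, from −0.60 to −0.09. No class 3 semaphorin (of 7), neuropilin (of 2), ephrin-B (of 3), EphA receptor (of 9) or Slit (of 3) was called, nor was Dcc. Just outside the threshold was Ephb6, an Eph receptor that lacks kinase activity, at −0.47 (standard error 0.186, adjusted p = 0.102), and just inside was Robo2 at 0.0994.

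The unassigned share and, in part, the cortical marker score moved with the groups of females. With the unassigned share as a covariate 0 of the 67 members were called by edgeR's quasi-likelihood test, as were 0.0% of all genes, and 3 of the 13 had an unadjusted p under 0.05. Their median change was then 0.24 in size against 0.27 before, and the median standard error rose from 0.0827 to 0.172. Since the shares of the groups do not overlap, group and share cannot be told apart in females. Sema6b moved from −0.22 to −0.11 (standard error 0.0773) and Unc5b from −0.27 to −0.07 (standard error 0.128). With the spliced share of each library as a covariate, where again 0.0% of all genes were called, Sema6b was at −0.01 (standard error 0.0710). With the unassigned share Ephb4 by contrast was at −0.23 (standard error 0.111), and Robo3 went from −0.98 to −1.54 (standard error 0.607). With the spliced share Ephb4 was at −0.18 (standard error 0.125) and Robo3 at −0.84 (standard error 0.761). Over the 13 members the median size of the change was 0.20 with the spliced share (median standard error 0.188). It was 0.13 with cortical marker score and unassigned share together (median standard error 0.159). In either fit 10 of the 13 lay below 0, and 1 had an unadjusted p under 0.05 by edgeR's test.

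With the cortical marker score as a covariate 5 members were called, all lower. In that fit 9.36% of all genes were called, and 3.67% of all genes were called as lower. Sema6b (−0.24, adjusted p = 0.0267), Ephb4 (−0.25, adjusted p = 0.0567) and Efna2 (−0.25, adjusted p = 0.0737) were among those called without it, and Efna3 and Plxnd1 joined them. Unc5a moved from −0.34 to −0.10 (standard error 0.0836), Sema7a from −0.60 to −0.22 (standard error 0.129) and Ntn4 from −0.28 to −0.09 (standard error 0.0975). Without a covariate, 1 of the 8 cortical markers was called, as lower in MSUS females. In other cell type lists, 6 of 8 oligodendrocyte markers and 2 of 6 astrocyte markers were called as lower, against 11.9% of all genes. No marker of striatal projection neurons, cholinergic interneurons, oligodendrocyte precursors or microglia was called. Values of the 2 glial lists with calls follow. The summed oligodendrocyte markers ran from 726 to 1046 RPKM in Con and from 689 to 850.5 in MSUS females, and the astrocyte markers from 458 to 486 and from 434 to 482. Their part in the result was not tested. Of the endothelial markers, which bear on Ephb4 and Robo4, 0 of 6 were called, with summed levels of 42.4 to 46.0 RPKM in Con and 41.0 to 44.1 in MSUS females.

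**Figure D3:**
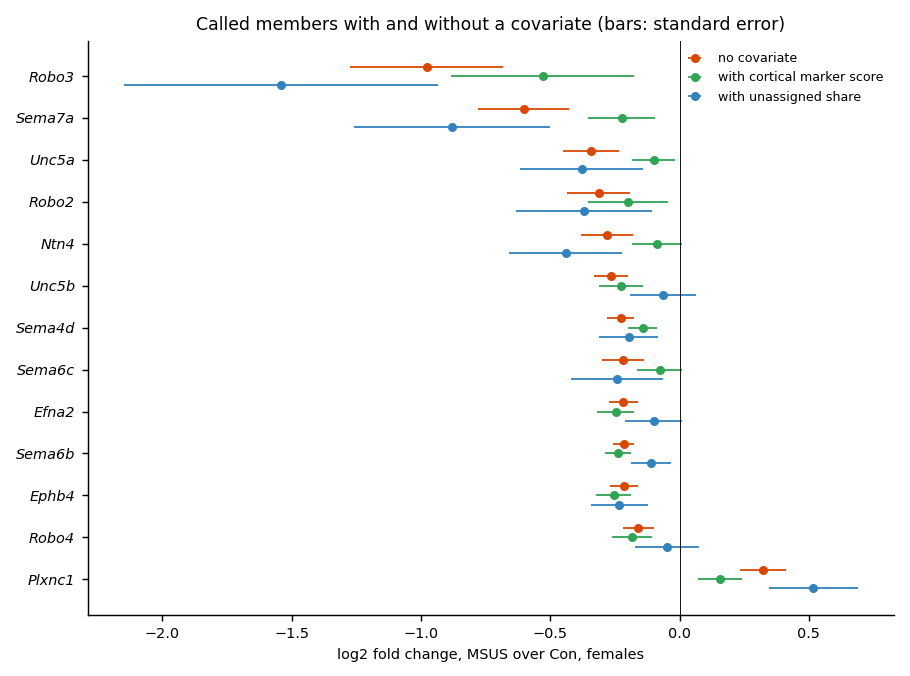
Log2 fold changes of the 13 called members, MSUS over Con females, without a covariate, with the cortical marker score and with the unassigned share. Bars are standard errors. Unc5a, Sema7a and Ntn4 move toward 0 with the cortical score, and Sema6b, Efna2 and Unc5b with the unassigned share.

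With each of the 12 females left out in turn, 8 of the 13 calls held, namely those of Sema6b, Sema4d, Ephb4, Unc5b, Efna2, Sema7a, Robo3 and Plxnc1, with adjusted p no higher than 0.0964 by edgeR's quasi-likelihood test. Unc5a lost its call without Con female 2 or MSUS female 2, 3 or 5, with adjusted p up to 0.115. Sema6c kept its call only without Con female 4, 5 or 6 or MSUS female 1, Ntn4 only without Con female 4 or 6 or MSUS female 1, and Robo2 only without Con female 1 or 4 or MSUS female 1. Robo4 kept it only without Con female 3 or 6. The highest adjusted p of these 4 genes were 0.172, 0.157, 0.196 and 0.168. The count of members called was 8 without MSUS female 2, 3 or 5, and 17 without Con female 6. The share of all genes called is not given for these fits, so whether the members differed from all genes was not tested.

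The members also differed among animals of the same group, and for some of them that variation ran with the cortical marker score. Deviations of each member from its group mean on the log2 scale were set against those of the score over the 24 animals. After Benjamini-Hochberg adjustment over 134 relations (67 members and 2 measures, 100000 permutations within groups), 27 members passed 0.05, 16 with a positive and 11 with a negative correlation. By rank, 22 of these passed too. The weakest of the 27 had an r of 0.527 in size, which 26.1% of all 21500 genes reached (14.4% positive and 11.7% negative), against 40.3% of the members, and the difference between these shares was not tested. Highest was Unc5a, with Pearson's r = 0.841, Spearman's rank correlation = 0.825 and adjusted permutation p of 0.000335 and 0.000447. Its unadjusted p of 1e-05 was the smallest that these permutations can give. Next was Sema7a, with r = 0.790 and a rank correlation of 0.808 (adjusted permutation p = 0.000536 and 0.000447). Without the 2 animals farthest from the median score the r values were 0.809 and 0.729.

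At the other end lay Sema3f, a secreted repellent (r = −0.777, rank correlation −0.808), Dcc, the netrin receptor (r = −0.770, rank correlation −0.797), and Robo1, the Slit receptor (r = −0.763, rank correlation −0.749), each with an adjusted permutation p of 0.000335 for r. Without the same 2 animals the r values were −0.704, −0.714 and −0.701. The labels number the libraries, and within numbers 1 to 12 and 13 to 24 the r values were 0.799 and 0.896 for Unc5a, −0.746 and −0.796 for Dcc, and −0.711 and −0.811 for Robo1. Members of the same pathway lay on both sides. Unc5a and Unc5c (r = 0.688) rose with the score while Dcc fell, and Robo2 (r = 0.605) and Slit1 (r = 0.685) rose while Robo1 fell. Sema7a rose while its receptor Plxnc1 fell (r = −0.733).

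**Figure D4:**
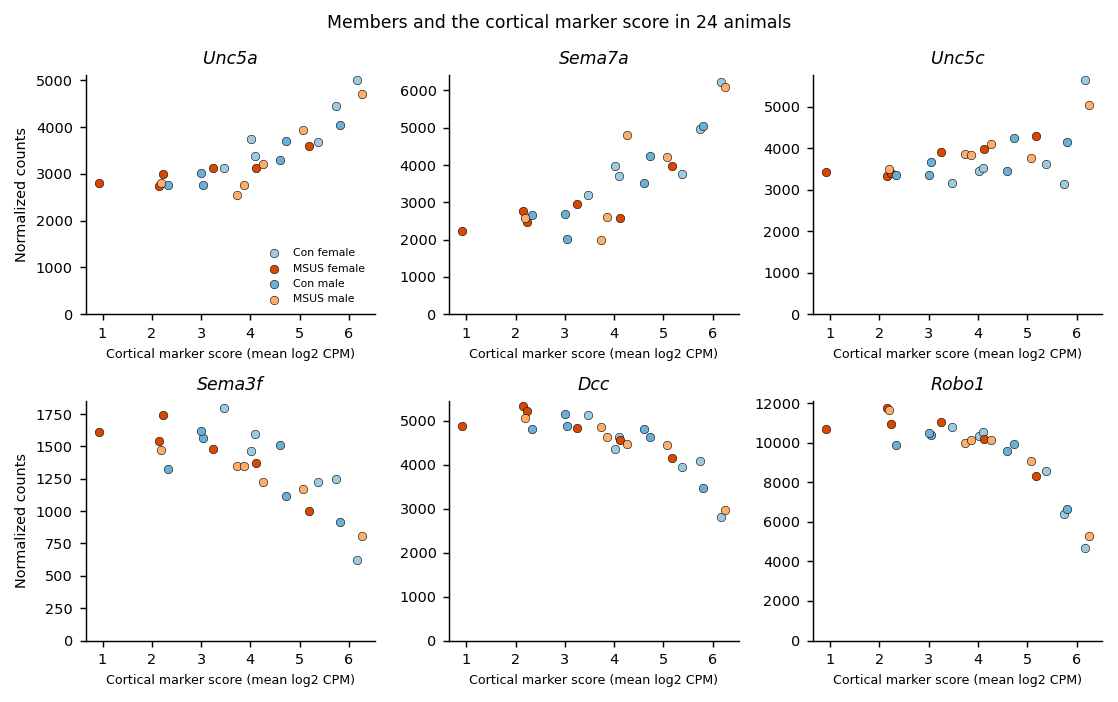
Normalized counts of 6 members against the cortical marker score (mean log2 CPM of 8 markers), 1 point per animal, colored by group. Unc5a, Sema7a and Unc5c are highest in animals with high scores, and Sema3f, Dcc and Robo1 are lowest there.

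These relations within groups can be set beside the female fold changes. All 16 members with a positive correlation had female fold changes below 0, and 9 of the 11 with a negative correlation had fold changes above 0. Among all genes past the same sizes of r, 93.2% and 84.2% had female fold changes of these signs. What part the score had in the female changes of the members was not tested by this count. Among the 27 members were 6 of the 13 called, namely Unc5a, Sema7a, Sema4d, Ntn4, Robo2 and Plxnc1. With the unassigned share 9 members passed, all with negative correlations and with female fold changes below 0. At the weakest r among them, 0.464 in size, 11 members (16.4%) and 14.2% of all genes had negative correlations, and 0 members but 2791 of the 21500 genes positive ones. Among all genes with such negative correlations, 2.81% had female fold changes above 0. Among those with positive ones, 2.42% had female fold changes below 0. What part the share had in the female changes was not tested by this count either. The members were led by Efna3 (r = −0.689), Unc5b (r = −0.668) and Sema6b (r = −0.646). Of the 9 that passed, Unc5b, Sema6b, Sema4d and Robo4 were called in females. Ephb4, Efna2, Robo3 and Sema6c passed with neither measure.

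The widest spread within groups was that of Epha1, with a pooled SD of 0.76 on the log2 scale, followed by Robo3 at 0.71. The median over the 67 members was 0.19 and the lowest 0.07. Among members at 10 RPKM or more, Slit1 (0.47) and Sema7a (0.46) varied most. Within Con females, Sema7a differed 1.95-fold and Robo1 2.30-fold between the highest and the lowest animal.

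In males, 0 of 66 members tested were called, as were 0.0% of 20691 genes, and 0 members had an unadjusted p under 0.05, against 0.923% of all genes, by edgeR's quasi-likelihood test. DESeq2 also called 0 members and 0.0% of all genes. None of the 66 had groups without overlap, against 0.0387% of all genes. The median log2 fold change was −0.0051 over the members and 0.0028 over all genes. Smallest in p was Sema4b (chromosome 7, 80186841 to 80226527), a class 4 semaphorin, with 1220.4 to 1327 normalized counts in Con males (median 1295) and 1139 to 1278 in MSUS males (median 1216), a change of −0.08 (standard error 0.0394, unadjusted p = 0.0652 from edgeR). Sema6a followed at 0.10 (standard error 0.0690) and Unc5c at 0.11 (standard error 0.0879). Efna4 did not pass the filter on low counts in males.

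The members called in females had male fold changes from −0.09 (Efna2) to 0.30 (Robo3). Sema6b was at 5625 to 6257 normalized counts in Con males (median 5836) and 4979 to 6509.9 in MSUS males (median 5655), a change of −0.05 (standard error 0.0586). Sema4d ran from 2881 to 3529 (median 3162) and from 2915 to 3539.7 (median 3137), a change of 0.01 (standard error 0.0568). Unc5b had 1807 to 2322 (median 1962) and 1862 to 2249.6 (median 2052), a change of 0.03 (standard error 0.0664). The male groups overlapped in all 3 genes. Ephb4 too overlapped, with 307 to 369 normalized counts in Con males (median 331) and 280.2 to 369.6 in MSUS males (median 329), at −0.03 (standard error 0.0787). Robo3 reached 465 in 1 MSUS male, with 57.5 to 217 in Con males (median 157) and a median of 113 in MSUS males, so that its male change of 0.30 had a standard error of 0.456.

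**Figure D5:**
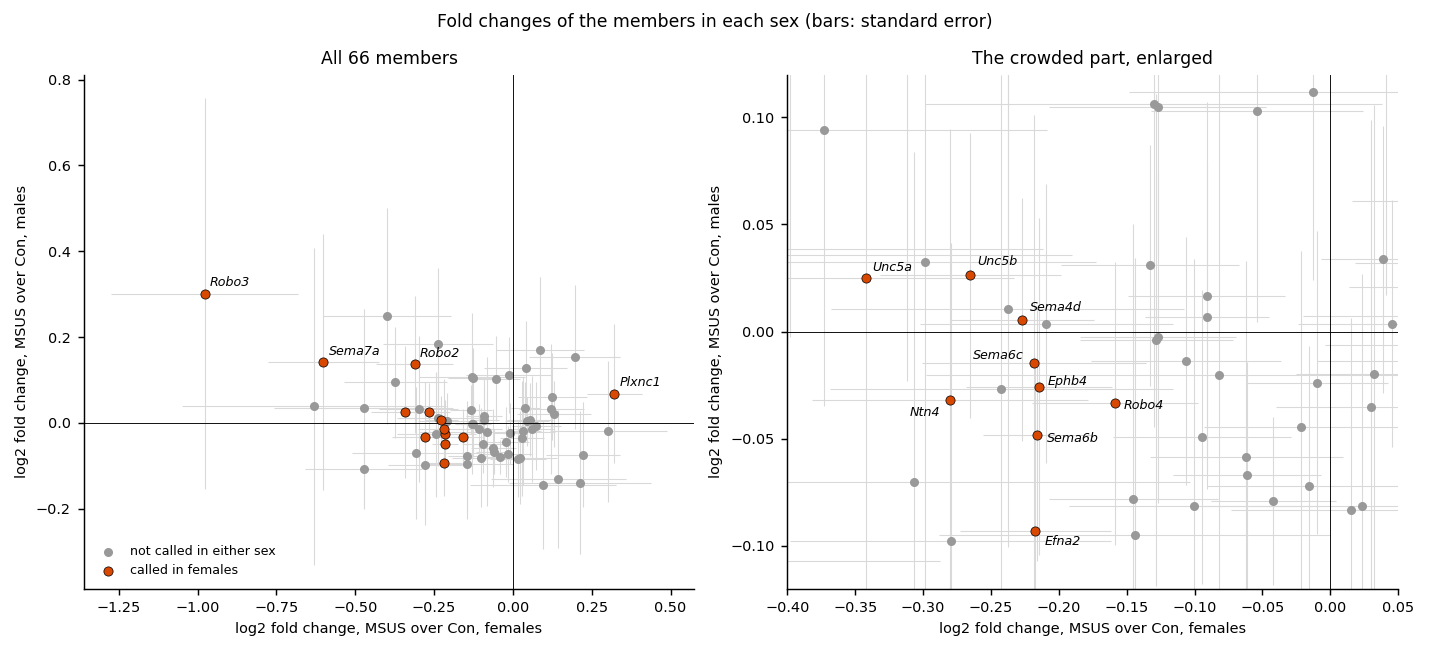
Log2 fold changes, MSUS over Con, of 66 members in females (horizontal) and males (vertical), with standard errors. The right panel enlarges the crowded part. The 12 lower members called in females spread from −0.98 to −0.16 horizontally, and apart from Robo3 they lie between −0.09 and 0.14 vertically.

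Whether the effect of MSUS differed between the sexes was tested over the 24 animals by an interaction of group and sex. By edgeR's quasi-likelihood test 0 of 67 members were called, as were 0.0% of 21500 genes, and 8 members had an unadjusted p under 0.05 (11.9%, against 18.7% of all genes). DESeq2 also called 0 members, against 2.22% of the genes it tested. The smallest p were those of Unc5b (−0.30, standard error 0.0967), Sema4d (−0.24, standard error 0.0795) and Sema6b (−0.17, standard error 0.0705), with adjusted p of 0.1998, 0.1998 and 0.225 from edgeR's fit across all genes. Without MSUS male 1, both Unc5b (adjusted p = 0.0580) and Sema4d (adjusted p = 0.0586) were called. MSUS male 1 had the highest unassigned share of the MSUS males, at 44.7%. Under the alternatives that left out no animal, none of these genes was called. Their interactions then ran from −0.32 to −0.046 for Unc5b, from −0.26 to −0.022 for Sema4d and from −0.20 to −0.00034 for Sema6b. In the main fit of the interaction, 6 of the 13 members called in females had an unadjusted p under 0.05, all below 0. A difference between the sexes was thus not shown for any member over all animals.

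Between the sexes in Con animals, 1 of 67 members was called (1.49%), against 2.64% of all genes in either direction and 0.799% higher in females. At an unadjusted p under 0.05 there were 8 (11.9%, against 17.8%). This was Sema6b, higher in Con females (6454 to 7021 normalized counts) than in Con males (5625 to 6257) with no overlap, which was seen for 2.01% of all genes and in this direction for 0.858%. Its log2 fold change was 0.18 (standard error 0.0390, adjusted p = 0.0681 from edgeR). The call was lost without any 1 of Con females 1, 2, 4 and 5 or Con males 1, 3, 4 and 6, with adjusted p up to 0.168. The comparison shares its Con females with that of MSUS and Con females, and in MSUS animals the change of Sema6b between the sexes was −0.0021 (standard error 0.0598). The unassigned share was 31.02% to 34.8% in Con females and 34.7% to 40.6% in Con males, and with it as a covariate Sema6b was at 0.14 and not called. Over the alternatives that left out no animal its change ran from 0.028 to 0.20, and under 9 of them the call was lost.

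In MSUS animals 0 of 67 members were called between the sexes by edgeR, against 0.135% of all genes, with 7 at an unadjusted p under 0.05 (10.4%, against 7.29%). DESeq2 called 2, Unc5b and Sema6a (2.99%), against 0.782% of the genes it tested. Unc5b was lower in MSUS females (1493 to 1859 normalized counts, median 1712) than in MSUS males (1862 to 2249.6, median 2052), with no overlap, at −0.28 (standard error 0.0562, adjusted p = 0.130 from edgeR). Its adjusted p was 0.0711 without MSUS male 1. Sema6a, a transmembrane semaphorin that signals through class A plexins, had 3538 to 3879 normalized counts in MSUS females (median 3691) and 4028 to 4633 in MSUS males (median 4093), again without overlap (−0.18, standard error 0.0434, adjusted p = 0.226 from edgeR). Next was Plxnb3, a plexin-B receptor, at −0.13 (adjusted p = 0.486), with overlapping groups. Separation of this kind was seen for 2 of 67 members (2.99%) and 0.637% of all genes, with females the lower for 0.396%.

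Further genes of guidance signaling were taken from a list of 80 co-receptors, other cues and intracellular effectors, all of which were tested. The list was written by function, with earlier results of these data known. In females 19 of the 80 were called (23.8%, against 25.1% of all genes), and the median log2 fold change of the list was −0.08. Of these calls 17 were lower and 2 higher, where 11.9% of all genes were called as lower and 13.1% as higher. Smallest in p were Cfl1, the actin-severing protein cofilin, at −0.27 (standard error 0.0494, adjusted p = 0.00603), and the kinase genes Src at −0.13 (adjusted p = 0.0196) and Cdk5 at −0.11 (adjusted p = 0.0206), all by edgeR's quasi-likelihood test. Higher were Rock1, a kinase that acts on the actin cytoskeleton, at 0.14 (adjusted p = 0.0447) and Ssh3, a cofilin phosphatase, at 0.13 (adjusted p = 0.0762). In males and in the interaction 0 of the 80 were called, as were 0.0% of all genes. Between the sexes 0 were called too, against 2.64% of all genes in Con and 0.135% in MSUS animals. With the unassigned share as a covariate 0 were called in females, as were 0.0% of all genes. With the cortical score 4 were called, against 9.36% of all genes.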

How the data were processed

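Bilateral NAc tissue was punched from frozen brains, rRNA was removed enzymatically without selection of poly(A) tails, and stranded libraries were sequenced as read pairs. The authors trimmed adapters and aligned to mm10 with STAR (version 2.6.1b in the submitters' processing notes) and GENCODE M15, and deposited raw gene counts of uniquely mapped pairs in 3 columns, of which the sense column held 94.9% of the stranded counts and was used. Pairs with several alignments or in the exons of more than 1 gene are not counted by STAR, and 64 of the 67 members shared no exon base with another gene on their strand.

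Positions and exon lengths came from GENCODE M21 (GRCm38, the same assembly), which held 49121 of 52636 identifiers in the same version and 3368 in another. Normalized counts are counts divided by DESeq2 size factors, and RPKM uses the union of exons. After filterByExpr (minimum count 10) and TMM scaling, edgeR's quasi-likelihood F test was run with its robust option, with Benjamini-Hochberg adjustment over all genes and a threshold of 0.10. Dividing each fold change's size by the root of its F gave the standard error. Alternatives were DESeq2, its size factors, other filters, counts without regard to strand, a replicate block, covariates (library set, cortical marker score, unassigned share, and spliced share from the study's library statistics), offsets for GC content and length, all animals in the fit, and each animal left out. The fit with cortical score and unassigned share together was added after the data were seen. The procedure was tested on simulated counts. Over 60 pairs of libraries within groups the lowest chi-square per gene was 6.34, so none was a copy. The paper's female model held the stage of the estrous cycle. The labels give stages to 6 females and 6 males, so stage was left out.

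The members and lists were chosen with earlier results of these data known. Members were named as up to 12 called per direction with the smallest p in each comparison (or the 3 smallest where none was called), the 10 highest and 5 lowest levels, and the most abundant of each family. Of the pathway list, up to 3 called per direction were named. R 4.3.3, edgeR 4.0.16, DESeq2 1.42.0, Python 3.11.15, pandas 2.3.3 and scipy 1.17.1 were used. Promoters came from RefSeq windows on GRCm38.p6.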

Additional observations from a re-analysis of the deposited data

Results flagged for a closer look

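In 12 of the 140 groups of 6 animals examined for named members, 1 animal lay far from the other animals of its group by Dixon's criterion at its 95% critical value. Chance marks about 1 in 20 groups. Values are normalized counts, with those of the nearest animal in parentheses. MSUS male 6 was highest for Robo3 at 465 (214) and for Sema6a at 4633 (4251), and lowest for Epha4 at 10277 (12045), Ntn1 at 1773 (3204) and Dcc at 2966 (4450.1). Its cortical marker score of 6.26 was the highest of the MSUS males, and its unassigned share of 32.2% was the lowest. Con male 5 had the highest score of the Con males at 5.81 and their lowest unassigned share at 34.7%. Con male 5 was lowest for Robo1 at 6672 (9572) and Dcc at 3475 (4633). Con female 3, with the highest score of the Con females at 6.17, was highest for Robo2 at 13593 (10031) and Unc5c at 5647 (3629). Con female 2 was highest for Ephb6 at 5333 (3199), with a score of 5.75. Efna2 was highest in Con male 3 at 417 (361) and lowest in MSUS male 3 at 279 (333). In unassigned share the other animals named here were neither lowest nor highest of their groups. What part the score or the share had in these values was not tested.

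The fold changes of Sema6a between MSUS and Con had opposite signs in the sexes, and Sema6a was called in neither sex. Every MSUS female lay under the Con female mean and every MSUS male above the Con male mean. The interaction was −0.24 on the log2 scale with an unadjusted p of 0.0419 and an adjusted p of 0.255 by edgeR's quasi-likelihood test, so the difference did not pass.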

How the results depend on the processing

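In females, the 13 members called became 8 with no filter on low counts, 22 with counts taken without regard to strand, 8 with all 24 animals in the fit and 8 at an adjusted p under 0.05. They became 5 with the cortical marker score as a covariate, where 9.36% of all genes were called. With the spliced share or the unassigned share they became 0, as did all genes (0.0%). With the cortical score and unassigned share together they also became 0. The remaining settings gave 9 to 17, with 17 by DESeq2. With offsets for GC content and length, 3 of 9 calls were higher against 1 of 13. Leaving out single females gave 8 to 17. The 19 pathway genes called became 11 with no filter, 10 with all 24 animals, 10 at 0.05, 4 with the cortical score and 0 with the spliced share, the unassigned share or both measures. Leaving out single females gave 9 to 27. In settings given without a share of all genes, here and below, whether the members differed from all genes was not tested. Group values are given above for the unassigned share and the cortical score, but not for the spliced share. Besides the fits with covariates, the cause of these changes was not tested.

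For females against males in Con animals, the 1 call became 0 with no filter, the spliced share, the unassigned share, the cortical score, both measures, the GC and length offsets, all 24 animals and the threshold of 0.05, and 0 to 1 with single animals left out. In MSUS animals the 0 calls became 2 by DESeq2, 1 with the library set, 1 with the unassigned share and 1 with the offsets, and 0 to 1 with single animals left out. The interaction had 0 to 2. In males 0 members were called under every setting tried.

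Same-numbered animals did not deviate together, with a correlation over 0.1 in 2 or 3 of 6 pairs in each comparison. The replicate block gave 13 members (9 shared with the 13) and 11 pathway genes in females, 0 members between the sexes in Con and 1 in MSUS animals.

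Signs turned for Unc5b at 0.019 with the spliced share and 0.036 with both measures, Unc5a at 0.023 with both measures, Robo4 at 0.028 and Rock1 at −0.037 with the spliced share, and Src at 0.0080 with the offsets. Of all values of named genes under the alternatives, 581 kept direction and side of the threshold, 165 lost and 9 gained a call, and 6 turned sign. Covariates that lie apart between groups of 6 leave little to estimate a group effect from, and members at low counts such as Epha1 and Efna4 carry wide errors at this depth.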
